A study of Mus musculus with 36 samples.

Results

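Peaks near the 4 genes of the mouse Sall family, Sall1, Sall2, Sall3 and Sall4, were collected from 9 ChIP-seq peak lists. A peak was taken as near a gene when its midpoint lay within 100 kb of the gene body (mm9, GENCODE vM1), which gave 218 of the 104813 peaks in all lists, with 94 at Sall1, 10 at Sall2, 15 at Sall3 and 99 at Sall4. ChIP-seq sequences the DNA that is precipitated with a protein and so maps where that protein sits on the genome. The study mapped MBD3 and CHD4 in mouse embryonic stem cells (ESCs) and in neural progenitor cells (NPCs) derived from them, and SIN3A and GFP-tagged ZFP296 in ESCs. Wild-type R1 ESCs in serum and LIF with 2i (a pair of kinase inhibitors) gave 2 lists for MBD3, 2 lists for CHD4 and 2 lists for SIN3A, 1 of these prepared with spike-in chromatin. Wild-type R1 ESC-derived NPCs in NPC medium gave 1 list for MBD3 and 1 for CHD4. ESCs labelled as carrying a ZFP296 BAC (a bacterial artificial chromosome, here with the tagged gene) in the ESC medium gave 1 list with a GFP antibody. This line is labelled as an R1 line with a BAC. The methods of the study instead describe KH2 ESCs transfected with a GFP-tagged ZFP296 construct, with ZFP296 cloned from cDNA into a vector.

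SALL proteins are transcription factors with several pairs of C2H2 zinc fingers, and a short stretch at their amino terminus recruits the nucleosome remodeling and deacetylase (NuRD) complex. MBD3 and CHD4 are subunits of NuRD, CHD4 being an ATP-dependent remodeler that also acts outside the complex. SIN3A is the scaffold of another histone deacetylase complex. In ESCs, SALL4 has been linked to the pluripotent state and SALL1 is expressed beside it. Sall1 is otherwise known for kidney development, Sall2 for eye and neural development, and Sall3 for the formation of the palate and cranial nerves. The lists map NuRD subunits on the Sall genes, not the SALL proteins themselves.

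Peaks of both ESC MBD3 lists overlapped at Sall1 and Sall4 alone among the 4 genes, and 6 of the 9 segments that the lists share are shown. The 3 not shown, all at Sall4, are chr2:168586695-168586798, chr2:168665467-168665519 and a single base at 168590446. All are mm9, plus strand, 5′ to 3′, in lower case, with capitals for the letters of any searched string, and the segments of 300 bases are the central part of a longer shared segment. Sall1 chr8:91539479-91539778 is the segment that a ZFP296 peak also overlapped. Sall1 chr8:91527439-91527738 had the highest MBD3 values of the family, and Sall1 chr8:91515889-91516059 is the farthest of these from the Sall1 start. Sall4 chr2:168589996-168590203 and Sall4 chr2:168590254-168590279 lie beside each other within the gene, and Sall4 chr2:168667193-168667435 lies upstream of it.
Sall1 chr8:91539479-91539778: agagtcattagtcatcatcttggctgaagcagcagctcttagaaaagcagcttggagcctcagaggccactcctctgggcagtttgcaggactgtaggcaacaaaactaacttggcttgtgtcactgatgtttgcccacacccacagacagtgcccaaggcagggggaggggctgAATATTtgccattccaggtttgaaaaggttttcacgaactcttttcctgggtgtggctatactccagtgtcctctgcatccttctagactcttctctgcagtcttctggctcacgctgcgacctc
Sall1 chr8:91527439-91527738: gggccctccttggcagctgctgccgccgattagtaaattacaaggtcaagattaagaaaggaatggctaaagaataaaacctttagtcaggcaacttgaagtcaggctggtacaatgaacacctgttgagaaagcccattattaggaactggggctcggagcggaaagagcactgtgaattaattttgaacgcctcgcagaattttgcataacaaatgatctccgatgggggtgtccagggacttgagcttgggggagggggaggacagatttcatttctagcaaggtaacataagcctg
Sall1 chr8:91515889-91516059: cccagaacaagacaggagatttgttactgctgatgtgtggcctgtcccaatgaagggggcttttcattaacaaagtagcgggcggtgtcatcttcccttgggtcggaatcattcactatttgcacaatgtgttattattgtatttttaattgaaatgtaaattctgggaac
Sall4 chr2:168589996-168590203: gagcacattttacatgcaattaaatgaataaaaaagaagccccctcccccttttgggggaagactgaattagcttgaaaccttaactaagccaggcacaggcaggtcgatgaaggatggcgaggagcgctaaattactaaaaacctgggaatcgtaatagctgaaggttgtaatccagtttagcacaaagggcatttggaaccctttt
Sall4 chr2:168667193-168667435: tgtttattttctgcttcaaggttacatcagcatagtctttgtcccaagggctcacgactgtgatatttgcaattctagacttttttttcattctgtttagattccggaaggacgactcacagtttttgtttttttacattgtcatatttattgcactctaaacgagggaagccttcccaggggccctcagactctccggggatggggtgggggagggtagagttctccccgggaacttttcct
Sall4 chr2:168590254-168590279: acctgcggattttttgatctgctaat
The first of these holds 1 AATATT, an AT-rich string of the kind that SALL4 binds. None of the other printed segments holds any of the strings searched, which were AATATT, the POU5F1 octamer ATGCAAAT, the SOX2 string CCATTGT, the AP-1 strings TGAGTCA and TGACTCA, and the telomere unit TTAGGG, on both strands.

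All 4 genes lie on the minus strand, and their windows are close to each other in length, from 216.915 kb to 220.203 kb. Sall1 (ENSMUSG00000031665.6) spans chr8:91551147-91568061, and its window holds no other protein-coding gene. Sall4 (ENSMUSG00000027547.11) spans chr2:168573832-168593443 and shares its window with 1 other gene, Atp9a. Sall3 (ENSMUSG00000024565.8) spans chr18:81163115-81183317, with Atp9b as the other gene in its window. Sall2 (ENSMUSG00000049532.6) spans chr14:52930847-52948437 in a window with 8 other genes, among them Chd8, Tox4 and Mettl3. A peak in these windows therefore need not belong to the Sall gene. Of the peaks at Sall1, 93 of 94 had the Sall1 start as the nearest start site of any protein-coding gene, against 70 of 99 at Sall4, 12 of 15 at Sall3 and 1 of 10 at Sall2.

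Each peak carries a value of the authors on a −log10 scale, which says how far the peak stood above its input within its own list. No source used here says whether p or q underlies it, so values were ranked within lists and not compared between them. The lists differed in length, from 2304 peaks for NPC MBD3 to 29974 for ESC CHD4 replicate 2, although the peak names of 7 lists mention the same number of reads. All 29974 peak names of ESC CHD4 replicate 2 name a BAC with Zfp219, whereas the labels call the library wild type. In that list the window of Zfp219 held 70 peaks, against 9 in CHD4 replicate 1, a ratio of 7.78 where the whole lists had a ratio of 2.56. The same ratio was 2.44 for Sall1 and 1.79 for Sall4, and Zfp219 ends 290.4 kb from Sall2, outside the Sall2 window. Counts from CHD4 replicate 2 are therefore given beside those from replicate 1. With 1 list per factor in NPCs, and with peaks of a list not being replicates, the numbers below are descriptions without a test.

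**Figure D1:**
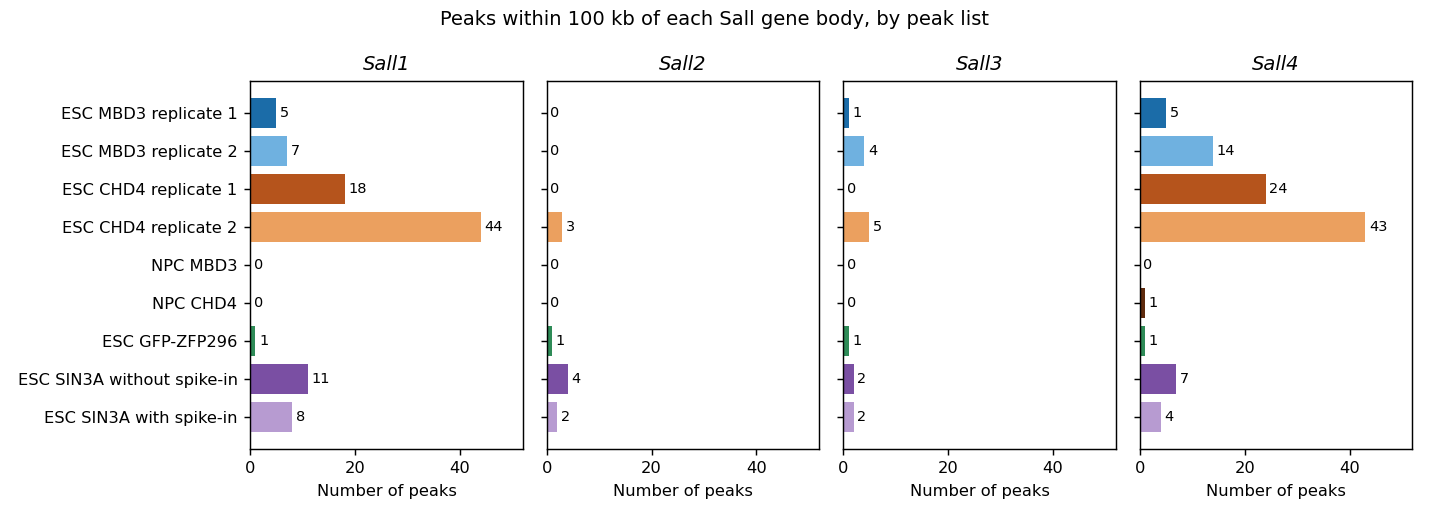
Number of peaks (x axis) within 100 kb of each Sall gene body in each of the 9 peak lists (y axis), 1 panel per gene and 1 bar per list. Sall1 and Sall4 carried most peaks in the ESC MBD3 and CHD4 lists, up to 44 and 43 in CHD4 replicate 2, whereas the NPC lists held 1 peak in all.

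MBD3 was mapped at Sall1 and Sall4 in both ESC replicates, at Sall3 in each replicate but at places that did not coincide, and not at Sall2. Replicate 1 had 5 peaks at Sall1, 0 at Sall2, 1 at Sall3 and 5 at Sall4, in a list where 24.4% of all 22367 protein-coding genes had at least 1 peak. In replicate 2 the counts were 7, 0, 4 and 14, with 47.1% of all genes having a peak. The 5 peaks of Sall1 and of Sall4 in replicate 1 were reached by 0.836% of all genes, and the 14 peaks of Sall4 in replicate 2 by 0.0715% of them, or 16 genes. Sall1 with 7 peaks stood lower in replicate 2, where 2.04% of genes had as many. The 4 peaks of Sall3 in that list were reached by 9.22% of genes. These genes are not independent, because windows of neighbours overlap and share peaks.

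An ESC MBD3 site was defined as a replicate 1 peak that overlapped a replicate 2 peak by at least 1 bp. Sall1 had 3 sites and Sall4 had 5, whereas Sall2 and Sall3 had 0, and 16.4% of all genes had at least 1. As many sites as Sall1 were found at 1.78% of genes, and as many as Sall4 at 0.165%, or 37 genes. Near the Sall genes 8 of 11 replicate 1 peaks recurred in replicate 2, a share of 72.7% (95% exact binomial interval 39.0 to 94.0), beside 64.3% over the whole list. When the overlap had to cover 0.5 of the shorter peak, Sall1 kept 3 sites and Sall4 had 3. Within 50 kb of the gene body the counts were also 3 and 3, since both upstream sites of Sall4 lay farther away.

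All 3 MBD3 sites of Sall1 lay in intergenic sequence beyond the 3′ end of the gene. The site nearest to the gene, chr8:91539470-91539788, was 28.4 kb from the start site and had a value of 9.21 in replicate 1 and 23.2 in replicate 2. Next came chr8:91527337-91527958, 40.4 kb from the start, with values of 27.4 and 28.8. Of all peaks in the respective lists, 0.725% and 0.702% had a value at least as high. The third, chr8:91515841-91516155, was 52.1 kb from the start, with values of 11.2 and 9.51. The 3 sites thus formed a row of about equal steps downstream of Sall1, with the middle one ranking near the top of both lists.

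Around the Sall1 start, MBD3 was called in replicate 1 only. A pair of peaks with values of 6.54 and 8.34 lay 1.31 kb and 0.991 kb inside the gene, and replicate 2 had none there. Replicate 2 instead had 3 peaks upstream, from 19.7 kb to 29.2 kb away, with values of 7.63 to 11.04, which replicate 1 did not have.

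At Sall4, MBD3 sites fell into the gene and a far upstream stretch. Within the gene, chr2:168589996-168590203 was 3.34 kb past the annotated 5′ end, with a value of 6.33 in replicate 1 and of 12.5 in the overlapping replicate 2 peak. Beside it, chr2:168590254-168590446 had a value of 4.80 and touched that same replicate 2 peak, so that both sites belong to a single stretch of 628 bp. The intronic site chr2:168586627-168586798 had 4.78 and 8.52. Upstream, chr2:168665467-168665670 at 72.1 kb had 4.58 and 6.35, and chr2:168667193-168667435 at 73.9 kb had 5.53 and 6.80.

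The Sall4 sites were therefore numerous but of low value in replicate 1. All 5 of its replicate 1 peaks lay between 4.58 and 6.33, under the list median of 7.93, and the highest of them was reached by 73.3% of that list. In replicate 2 the 14 peaks ranged from 4.64 to 14.7, around a list median of 8.28. The highest of them, chr2:168520184-168520498, lay 73.1 kb downstream inside Atp9a, whose start was the nearest. Within Sall4 the highest was chr2:168591783-168591976, with 13.3, at 1.56 kb from the annotated 5′ end. No transcript annotated as protein-coding starts at that end, and the first one so annotated starts at 168592701.

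**Figure D2:**
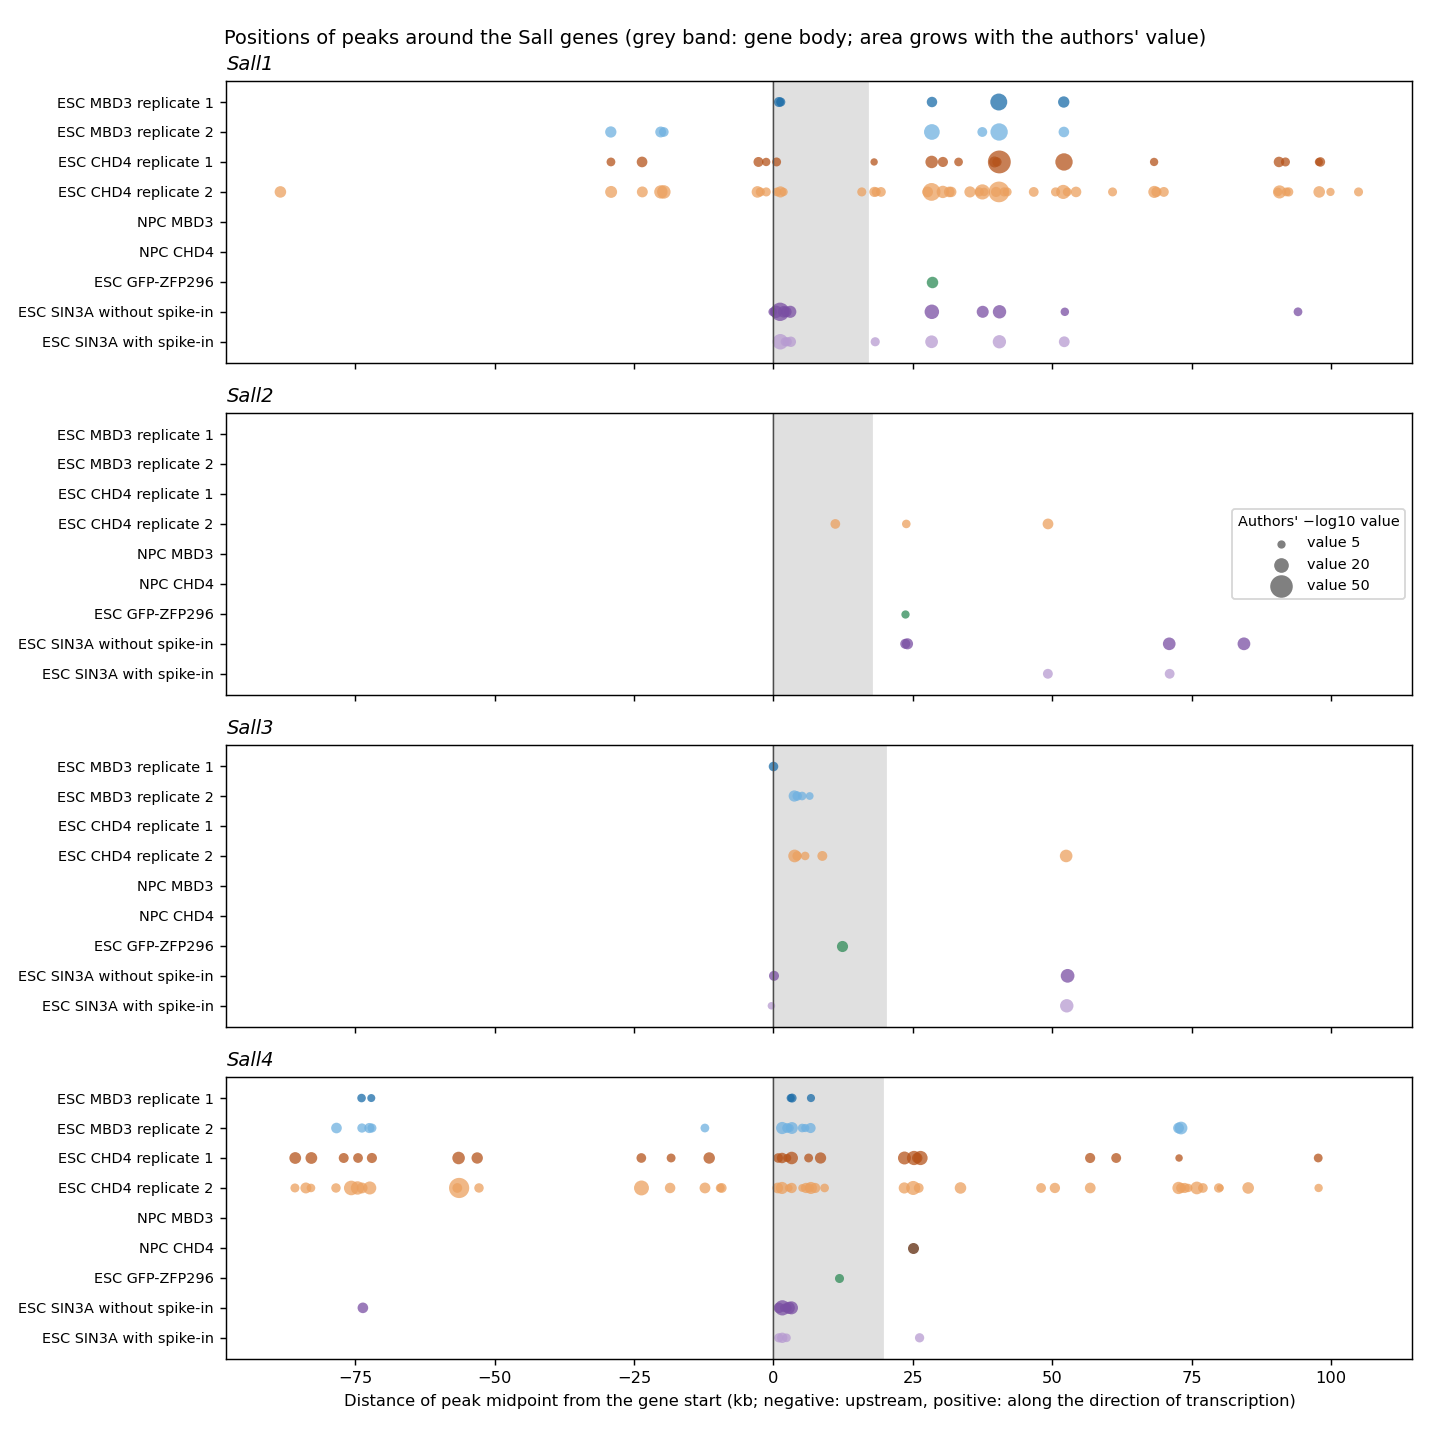
Position of every peak near each Sall gene (x axis: distance of the peak midpoint from the gene start in kb, negative upstream) by peak list (y axis), with point area growing with the authors' −log10 value and the gene body in grey. MBD3, CHD4 and SIN3A peaks stack at about 28, 40 and 52 kb downstream of the Sall1 start, whereas Sall4 has peaks within the gene, upstream and downstream of it.

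CHD4 was the factor with most peaks at Sall1 and Sall4 in ESCs. In replicate 1 there were 18 peaks at Sall1, 0 at Sall2, 0 at Sall3 and 24 at Sall4, with 54.6% of all genes having at least 1. Replicate 2 gave 44, 3, 5 and 43 peaks, with 76.6% of all genes having at least 1. As many peaks as Sall1 were found at 1.06% of genes in replicate 1 and 0.134% in replicate 2, and as many as Sall4 at 0.224% and 0.183%. The counts at Sall2 and Sall3 in replicate 2 were reached by 56.5% and 42.8% of genes, and the median over all genes in that list was 3.

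CHD4 sites, defined as for MBD3, numbered 15 at Sall1, 18 at Sall4 and 0 at Sall2 and Sall3, and 48.8% of all genes had at least 1. As many as 15 were found at 0.559% of genes and as many as 18 at 0.165%. When a peak counted for its nearest start site alone, 26 of the 33 sites in all remained. Those lost were all at Sall4, downstream of the gene. Near the Sall genes 33 of 42 replicate 1 peaks recurred in replicate 2, or 78.6% (63.2 to 89.7), beside 70.4% over the whole list. Without CHD4 replicate 2, the 18 and 24 peaks of replicate 1 remain, and Sall1 and Sall4 are still the only members with any.

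The highest CHD4 peak at Sall1 lay on the middle MBD3 site, with values of 51.5 and 41.9 in the 2 replicates. Only 0.120% of the replicate 1 list and 0.307% of the replicate 2 list had such a value or a higher one. The sites at 52.1 kb and 28.4 kb had CHD4 values of 28.8 and 14.0 in replicate 1 and of 18.4 and 30.4 in replicate 2. These were the 3 highest of the 18 Sall1 peaks in replicate 1. The other 15 replicate 1 peaks at Sall1 had values of at most 10.5.

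At Sall4 the highest CHD4 value in replicate 2 was 39.7, at chr2:168649671-168649959, 56.4 kb upstream, where replicate 1 had 14.2 and neither MBD3 list had a peak. In replicate 1 the highest value, 18.8, was shared by chr2:168566954-168567182 and chr2:168568044-168568423, 26.4 kb and 25.2 kb downstream of the Sall4 start and on either side of the start of Atp9a. These 3 peaks were picked after their values were seen. CHD4 covered the MBD3 site at 3.34 kb with values of 14.2 and 8.93.

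In most lists the median value of the peaks near the Sall genes was close to that of the whole list. It was 8.33 against 8.05 for the list in CHD4 replicate 1, 8.56 against 8.63 in CHD4 replicate 2, 6.54 against 7.93 in MBD3 replicate 1 and 8.52 against 8.28 in MBD3 replicate 2. Over the 8 MBD3 sites it was 5.93, beside 8.999 for all 1508 sites. Values far above the list median were limited to a few peaks, mainly at Sall1.

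**Figure D3:**
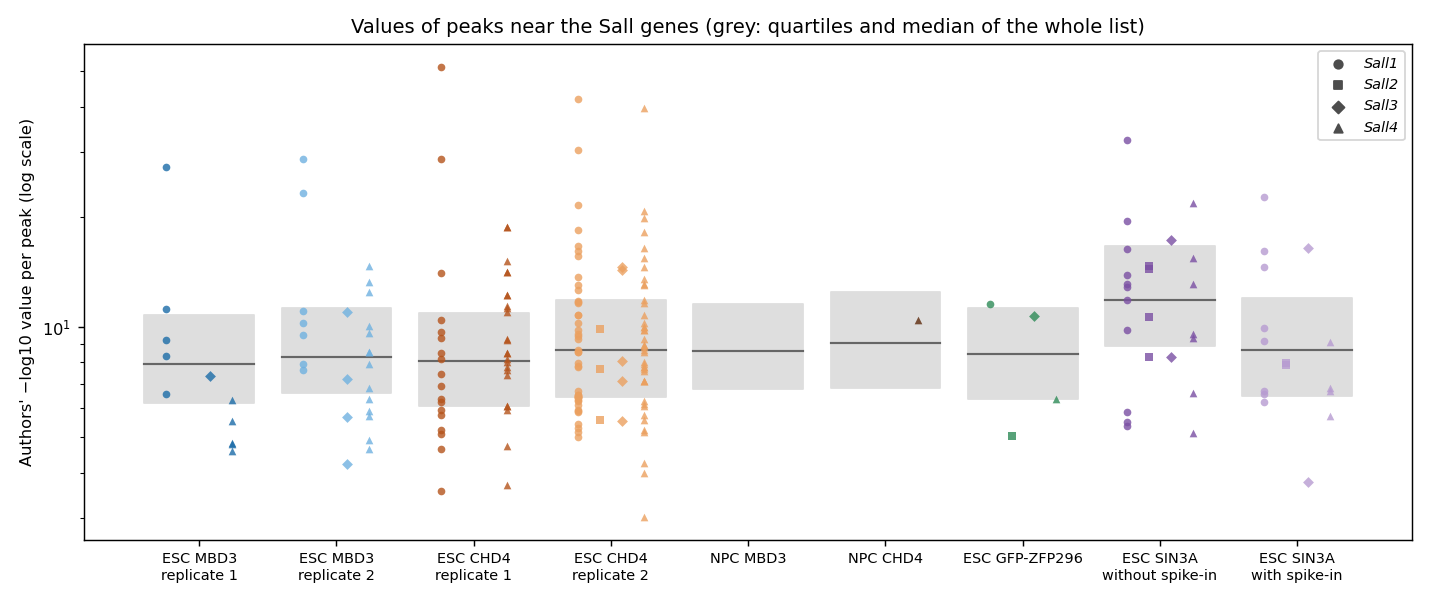
Authors' −log10 value of each peak near a Sall gene (y axis, log scale) by peak list (x axis), with a symbol per gene and with the quartiles and median of the whole list in grey. The Sall1 peaks at 27.4 and 28.8 for MBD3 and at 51.5 and 41.9 for CHD4 stand above the grey bands, whereas the Sall4 peaks of MBD3 replicate 1 lie between 4.58 and 6.33.

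Peaks that overlapped each other in any list were merged into regions, which gave 48 at Sall1, 5 at Sall2, 10 at Sall3 and 49 at Sall4. CHD4 was in 44 of the Sall1 regions and 47 of the Sall4 regions. MBD3 was in 8 and 12 of them, and each of these also had CHD4. The remaining 36 and 35 CHD4 regions had no MBD3 peak in either replicate. Without CHD4 replicate 2, an alternative chosen after seeing the data, CHD4 was in 17 of 26 regions at Sall1 and 24 of 34 at Sall4. It then lay with MBD3 in 4 of 8 MBD3 regions at Sall1 and in 5 of 13 at Sall4, and 13 and 19 CHD4 regions had no MBD3. At Sall3 the regions were split, with MBD3 in 5, CHD4 in 5 and both in 2 of 10, and each CHD4 peak there came from replicate 2.

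By the stricter sites, a CHD4 site lay on 5 of the 8 MBD3 sites (62.5%, 24.5 to 91.5), beside 84.5% over all MBD3 sites. The 5 were all 3 of Sall1 and 2 of the 5 of Sall4. All 5 Sall4 peaks of MBD3 replicate 1 overlapped CHD4 replicate 2, and 3 of them overlapped CHD4 replicate 1. In the other direction, 5 of 33 CHD4 sites overlapped an MBD3 site (15.2%), beside 15.7% over the whole set. The intervals cover counting error only and treat peaks as independent. Neighbouring sites can belong to a single stretch, as some at Sall4 do, so the intervals may be too narrow.

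In NPCs the 4 genes were nearly empty. NPC MBD3 had 0 peaks at each of them, in a list where 24.7% of all genes had at least 1, so that 75.3% of all genes had none either. NPC CHD4 had 0 peaks at Sall1, Sall2 and Sall3 and 1 at Sall4, where 69.9% of all genes had at least 1 and the median over all genes was 2. That peak, chr2:168568267-168568448, had a value of 10.4, reached by 38.7% of its list. It lay 25.1 kb downstream of the Sall4 start, nearer to the start of Atp9a, and overlapped the ESC CHD4 peaks there.

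Among all genes, 10.1% had an ESC MBD3 site and no NPC MBD3 peak, as Sall1 and Sall4 did. An ESC CHD4 site with no NPC CHD4 peak, as at Sall1, was found at 6.16% of genes. At least 15 ESC CHD4 sites were found at 125 genes, Sall1 and Sall4 included. Of these, 3 genes (2.40%) had 0 NPC CHD4 peaks, namely Sall1, Tbx3 and Elf3, and 15 (12.0%) had 0 or 1. Of the 398 genes with at least 3 ESC MBD3 sites, 209 (52.5%) had 0 NPC MBD3 peaks. The thresholds of 15 and 3 were taken from the counts of Sall1. At the level of single sites, 1 of 33 CHD4 sites near the Sall genes overlapped an NPC CHD4 peak (3.03%, 0.0767 to 15.8), beside 13.1% of all CHD4 sites, and 0 of 8 MBD3 sites overlapped an NPC MBD3 peak (0 to 36.9), beside 4.38%.

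**Figure D4:**
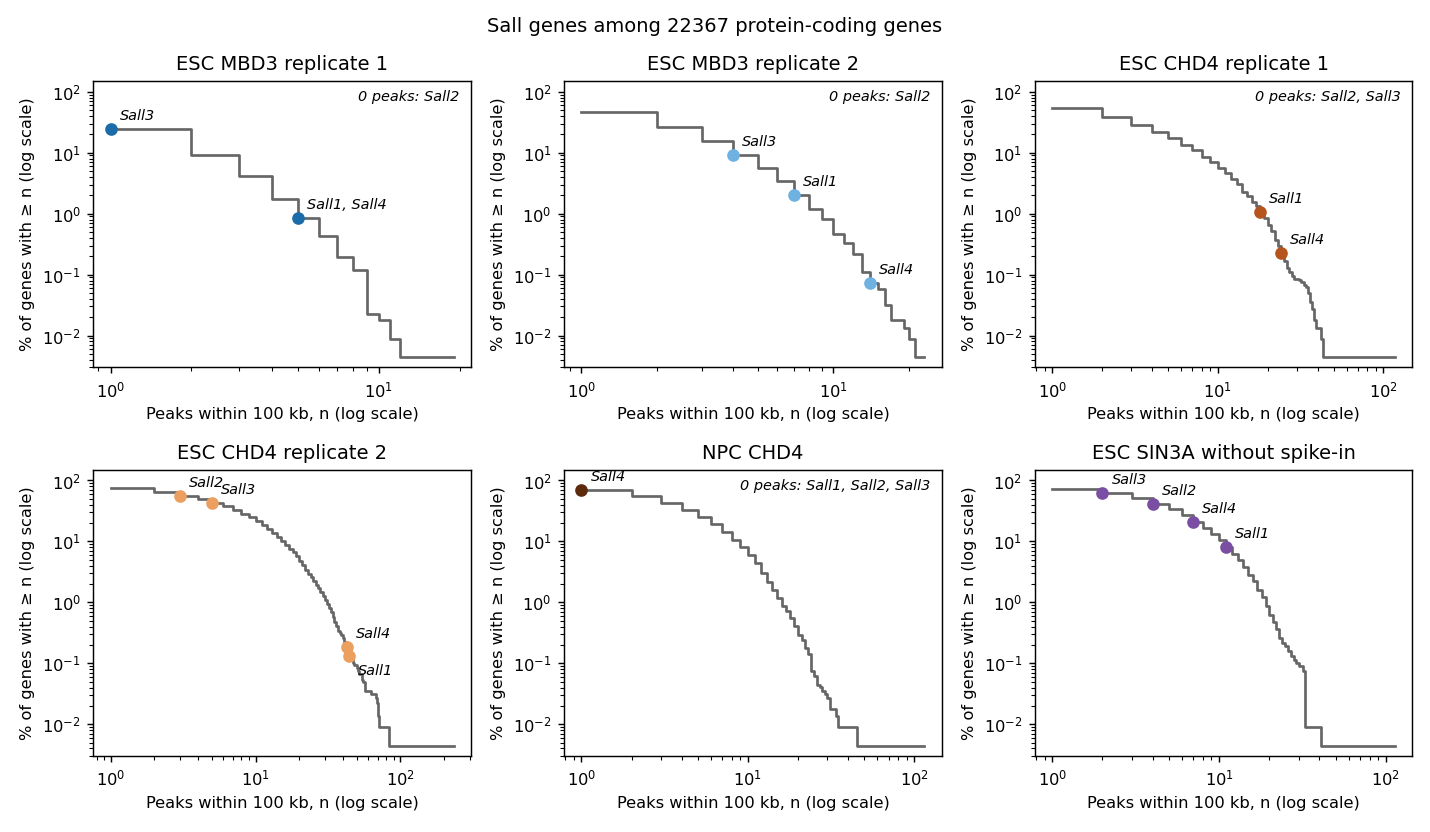
Percent of the 22367 protein-coding genes that had at least n peaks within 100 kb (y axis, log scale) against n (x axis, log scale), for 6 of the lists, with the Sall genes marked as points. Sall4 with 14 MBD3 replicate 2 peaks is matched by 0.0715% of genes and Sall1 with 44 CHD4 replicate 2 peaks by 0.134%. Sall2 and Sall3 lie at 9.22% of genes (Sall3 in MBD3 replicate 2) or more on each curve, or have 0 peaks.

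SIN3A had peaks in the windows of all 4 genes, but those in the Sall2 window were all nearer to Chd8, Rab2b or Mettl3. The only SIN3A site in the Sall3 window was nearest to the start of Atp9b. The list without spike-in had 11 peaks at Sall1, 4 at Sall2, 2 at Sall3 and 7 at Sall4, with 73.1% of all genes having at least 1. With spike-in the counts were 8, 2, 2 and 4, with 68.3% of all genes having at least 1. SIN3A sites, the peaks with spike-in that overlapped 1 of the other list, numbered 7, 1, 1 and 3, and 63.4% of all genes had at least 1. As many SIN3A peaks as Sall1 were found at 8.03% and 8.05% of genes in the 2 lists, and as many as Sall4 at 21.0% and 30.0%. The lists were called at thresholds of 0.0001 and 0.001, and threshold and preparation cannot be told apart.

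At Sall1, SIN3A gathered at the start, where 6 peaks without and 4 with spike-in lay between 1 kb upstream and 5 kb downstream of the start site. Its highest values were 32.5 at chr8:91566522-91567224 and 22.7 at chr8:91566623-91567031, 1.19 kb and 1.23 kb inside the gene and overlapping the pair of MBD3 replicate 1 peaks. SIN3A also overlapped each of the 3 distal MBD3 sites. Values without and with spike-in were 19.5 and 14.6 at 28.4 kb, 16.4 and 16.2 at 40.4 kb, and 5.36 and 9.93 at 52.1 kb. The value of 5.36 was low in its list, where 98.8% of peaks reached it. The regions of these 3 sites were the only ones in any Sall window that lay in at least 6 of the 9 lists.

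At Sall4, the SIN3A peaks without spike-in lay around the start in 6 of 7 cases. The highest, chr2:168591686-168592004 with 21.9, covered the MBD3 replicate 2 peak of 13.3, and the next, chr2:168589973-168590451 with 15.4, covered the MBD3 site at 3.34 kb. Of the 12 SIN3A sites near the Sall genes, 6 overlapped a CHD4 site (exact interval of the share 21.1% to 78.9%), beside 12.1% of all SIN3A sites. The 6 were 3 of 7 at Sall1 and 3 of 3 at Sall4.

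ZFP296 had exactly 1 peak at each Sall gene, in a list where 32.4% of all genes had at least 1. At Sall1 it lay on the MBD3 site 28.4 kb from the start, with a value of 11.5, which 23.7% of its list reached. That region, whose sequence with the AATATT is printed first above, was the only one of the family in all 7 ESC lists. At Sall3 the peak chr18:81170816-81171062 had a value of 10.7, and at Sall4 the peak chr2:168581479-168581913 had 6.36. Both lay wholly inside a coding exon of the gene, where no other list had a peak, and 1.58% of all ZFP296 peaks lay wholly inside coding sequence. At Sall2 the peak chr14:52924629-52924886 had 5.02 and lay inside Mettl3.

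So of the 8 MBD3 sites near the Sall genes 1 overlapped ZFP296 (12.5%, 0.316 to 52.7), beside 42.0% of all MBD3 sites, and of the 33 CHD4 sites 1 did (3.03%, 0.0767 to 15.8), beside 15.4%. Of the 398 genes with at least 3 MBD3 sites, 333 (83.7%) had at least 2 ZFP296 peaks, and 49 (12.3%) had 1 as Sall1 and Sall4 did. The ZFP296 peaks of Sall1, Sall3 and Sall4 were nearest to the start of the Sall gene itself, and that of Sall2 was nearest to the start of Mettl3.

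Sall3 had few peaks, and the replicates differed there. MBD3 replicate 1 had its single peak on the start site, with a value of 7.36, overlapping SIN3A without spike-in at 8.28. MBD3 replicate 2 had 4 peaks from 3.74 kb to 6.50 kb inside the gene, with values of 4.23 to 10.99, and 2 of them overlapped CHD4 replicate 2, whose values there were 14.6 and 7.14. SIN3A with spike-in had a peak of 3.78 at 0.366 kb upstream. The other SIN3A peak of each list, with values of 17.3 and 16.4, lay 52.6 kb to 52.8 kb downstream inside Atp9b.

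Sall2 had no MBD3 peak in any list. A single peak lay within its gene body, the CHD4 replicate 2 peak chr14:52937272-52937403 in an intron, with a value of 7.66. The other 9 peaks were nearer to the starts of Chd8, Rab2b and Mettl3. None of the 10 fell between 1 kb upstream and 5 kb downstream of the Sall2 start.

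Positions differed between Sall1 and Sall4. Of the 94 peaks at Sall1, 62 lay downstream of the gene, 15 upstream, 16 around the start and 1 in an exon. At Sall4, 29 lay downstream, 34 upstream, 23 around the start, 12 in introns and 1 in an exon. All 29 downstream peaks were nearer to the start of Atp9a or Nfatc2 than to that of Sall4. These counts pool the 9 lists, so a region can count several times, and CHD4 replicate 2 gave 44 of the 94 peaks and 43 at Sall4. In CHD4 replicate 1, 13 of 18 peaks at Sall1 lay downstream and 4 upstream, against 8 and 10 of 24 at Sall4. Chromosome 8, which holds Sall1, carried 9.38% of the autosomal peaks of MBD3 replicate 1 and 4.17% of those of replicate 2, while it holds 5.05% of the autosomal genes. For CHD4 in ESCs its share was 8.17% and 7.74%, and for CHD4 in NPCs it was 5.14%. It was 5.43% for MBD3 in NPCs, 6.91% and 7.34% for SIN3A without and with spike-in, and 2.16% for ZFP296. The part of these shares in the Sall1 counts was not tested. Chromosome 2, with Sall4, carried 6.41% to 8.89% of the peaks in the 9 lists and 8.61% of the genes.

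The searched strings were rare under the Sall peaks, in the central 200 bp of each. AATATT was under 3 of 25 MBD3 replicate 2 peaks (12.0%, beside 3.25% of the list), under 3 of 42 CHD4 replicate 1 peaks (7.14%, beside 3.41%) and under 5 of 95 CHD4 replicate 2 peaks (5.26%, beside 2.53%). The AP-1 strings were under 4 of the 42 (9.52%, beside 4.55%) and 8 of the 95 (8.42%, beside 4.68%). For the SOX2 string these counts were 2 (4.76%, beside 3.78%) and 4 (4.21%, beside 3.28%), and it was under 0 of the 25 MBD3 replicate 2 peaks, beside 6.30% of that list. The octamer was under 0 of the 42, beside 2.62%, under 1 of the 95 (1.05%, beside 2.41%), in an intron of Sall3, and under 0 of the 25, beside 5.02%. TTAGGG lay above the list share in CHD4 replicate 1, with 5 of 42 (11.9%, beside 8.21%), and below it in replicate 2, with 6 of 95 (6.32%, beside 7.26%). A match describes the letters and is no binding site, and several of these peaks cover the same region.

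The genes with the most similar counts over the 9 lists were looked up by the Euclidean distance over log2(peaks + 1). For Sall1 they were Gm5607 at 1.21, Ttll6 at 1.39 and Rpgrip1 at 1.41, where the median over other genes was 7.01. Rpgrip1 had 7 peaks in CHD4 replicate 1 and 54 in replicate 2, the list whose peak names mention a Zfp219 BAC. Like Zfp219 it lies on chromosome 14, and whether its count depends on that BAC was not tested. For Sall4 they were Etl4 at 1.49, Ddx43 at 1.55 and E330016A19Rik at 1.64, with a median of 7.16. Sall3 was nearest to Tmprss13 and Fxyd6, both at 1.27 with the same counts, and to Gdap1 at 1.34. Sall2 was nearest to Gm8251 and Cpsf2, both at 0.42, and to Ints6 at 0.59. Sall1 and Sall4 were not among the 3 nearest genes of each other.

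Genes of NuRD subunits and partners had fewer MBD3 sites each than Sall4. Of 20 such genes, 8 had an MBD3 site, with at most 3 at a gene, and 19 had a CHD4 site, with a median of 2 and a maximum of 15 at Zmynd8, where 16.4% and 48.8% of all genes had 1 or more. In NPCs 3 of the 20 had an MBD3 peak and 19 had a CHD4 peak, with a median of 5, beside 24.7% and 69.9% of all genes and a median of 2. Of the ESC marker genes Pou5f1, Nanog, Esrrb, Zfp42, Tbx3 and Klf4, 6 of 6 had an MBD3 site (median 3.5) and a CHD4 site (median 13), beside 3 and 5 MBD3 sites and 15 and 18 CHD4 sites at Sall1 and Sall4. In NPCs 0 of these 6 had an MBD3 peak and 3 had a CHD4 peak, against the same shares of all genes. Of 5 NPC marker genes, 0 had an ESC MBD3 site, 2 had an NPC MBD3 peak and 2 had an NPC CHD4 peak, beside 16.4%, 24.7% and 69.9% of all genes. Peaks of these proteins do not measure expression, so the identity of the cells was not checked by them.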

How the data were processed

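ChIP-seq peak lists of 9 samples were used. The other 27 of 36 samples were not analysed here. Groups and replicates came from the sample titles. The authors aligned reads to mm9 with BWA, kept unique reads, removed duplicates and called peaks per sample with MACS2 2.0 against input. The deposited lists give for each peak its interval and a −log10 value. Read counts per peak were not used here, so levels of binding were not compared, and the read number behind the SIN3A lists is not given in the sources used here.

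Peak midpoints were counted within 100 kb of gene bodies of 22367 protein-coding genes (GENCODE vM1, chromosomes 1 to 19, X and Y), 1-based, with Python 3.11.15, numpy 2.4.6, pandas 2.3.3, scipy 1.17.1 and matplotlib 3.10.9. The lists name 29 chromosomes or contigs. The reference gave a length for 22, and 0 of those held a peak past their end. The counting was tested on simulated peaks. Sites, the window around the start (1 kb upstream to 5 kb downstream, as in the study) and the 95% Clopper-Pearson intervals are described with the results. No test was run.

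The members and gene lists were chosen with earlier results of these data known. Peaks named were every ESC MBD3 site, NPC MBD3 peak, ZFP296 peak and peak around a start, or the 3 of highest value where there were more than 8 of a kind. Other peaks and totals were named after their values were seen. Of 21 NuRD genes and 6 NPC markers, 20 and 5 were matched by symbol. Proteins are not reported here. Alternatives were a 50 kb window, nearest start site, a value of at least 10, lists cut to their 2304 highest peaks, a larger overlap, each replicate left out, distances from the start site and a 500 bp string window.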

Additional observations from a re-analysis of the deposited data

How the results depend on the processing

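With a window of 50 kb, or with an overlap of 0.5 of the shorter peak, each total over the 4 Sall genes stayed within 1.5 times its value above. By gene, MBD3 sites at Sall4 fell from 5 to 3 under each of these, and the SIN3A site of Sall2 was lost (0 left) at 50 kb. NPC MBD3 had 0 peaks under every alternative. A value of at least 10 left 1 of 8 MBD3 sites (at Sall1), 6 of 33 CHD4 sites, 4 of 12 SIN3A sites and 2 of 4 ZFP296 peaks. Lists of equal length (2304 peaks) left 4 MBD3 sites, 4 CHD4 sites, 1 SIN3A site and 0 NPC CHD4 peaks, by construction from fewer peaks, and the CHD4 sites were then 3 at Sall1 and 1 at Sall4, in place of 15 and 18. The NPC CHD4 peak was also lost (0 left) when a peak counted for the nearest start site alone, since that start is Atp9a's. With either replicate left out, taking all peaks of the other, MBD3 gave 11 to 25 peaks, CHD4 42 to 95 and SIN3A 16 to 24, the higher number coming from MBD3 replicate 2, CHD4 replicate 2 and SIN3A without spike-in. In the central 500 bp of CHD4 replicate 2 peaks, TTAGGG and AATATT were each under 18.9% of those near the Sall genes, in place of 6.32% and 5.26%, by construction from a wider window, and under 17.9% and 9.12% of the whole list. The AP-1 strings were there under 10.5% of those near the Sall genes and 9.82% of the whole list. In CHD4 replicate 1 these AP-1 shares were 16.7% and 10.1%. Without CHD4 replicate 2, chosen after seeing the data, regions with CHD4 fell from 99 to 41, those with MBD3 too from 22 to 9 and those without MBD3 from 77 to 32. Shares of all genes with a peak fell by 2.14 to 4.49 percentage points when distance was taken from the start site. No paired analysis was possible because the results come from no test. List length, threshold and value limit what these counts can show, and with 1 NPC list per factor no replicate check of the NPC counts was made here. The study also measured MBD3 by ChIP-qPCR in ESCs and NPCs, at ESC-enriched, NPC-enriched and shared sites. Its ChIP-qPCR primers include a Sall4 pair, and both primers match the printed segment chr2:168589996-168590203. The ChIP-qPCR values were not used here.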
